A study of Homo sapiens with 6 samples.

Results

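The genes described here are 37 cell death genes of the BCL2 family, the caspases, the mitochondrial and receptor routes that activate them and their inhibitors. They were chosen by name. A probe set, the group of array probes that reads 1 target, was counted for a gene where that gene was its single listed symbol. In all, 134 of 44988 such probe sets read 35 of the 37 genes, and BIRC3 and RIPK1 were not analysed here. Signals came from 6 Affymetrix arrays of 786-O cells, an established line from a human renal cell carcinoma. A group of 3 arrays, shNC, came from cells given a negative control short hairpin RNA (shRNA), and a group of 3, shERCC6L, from cells given an shRNA against ERCC6L, a DNA translocase of anaphase. Both groups received their shRNA by lentivirus and were grown in RPMI 1640 with fetal bovine serum. The labels do not give the number of hairpins, the time after infection or whether cells were pooled or cloned. They also do not say whether the replicates were separate cultures, so the p-values reflect the spread among these arrays alone, and that spread may be technical.

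Apoptosis can start at the plasma membrane or at mitochondria. At the membrane, ligands such as TRAIL bind death receptors, which recruit the adaptor FADD and initiator caspases. At mitochondria, BAX and BAK1 open pores when survival proteins of the BCL2 family are neutralised by BH3-only proteins. Cytochrome c then leaves through the pores and builds the apoptosome with APAF1, which activates CASP9, while DIABLO and HTRA2 leave as well and block inhibitor of apoptosis proteins. BID, cut by CASP8, links both routes.

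The signal of ERCC6L itself was 97.59, 97.49 and 97.83 in the 3 shERCC6L samples, against 239.9, 244.3 and 261.4 in shNC, so the targeted transcript was lower on every array of its group. Correlations of log2(signal + 16) between arrays were 0.9987 to 0.999 within groups and 0.9932 to 0.9939 across groups. All 10 genes listed as markers of a renal and kidney carcinoma line were at or above the median level over genes. They were PAX8, PAX2, EPAS1, NNMT, CAV1, VIM, KRT8, KRT18, CDH2 and LOX. Whether each is particular to kidney was not tested. The leukocyte marker PTPRC lay at percentile 1.88 of all genes, and 1 of 4 leukocyte, 0 of 4 endothelial, 0 of 4 fibroblast, 1 of 3 liver and 0 of 3 distal nephron markers reached that median. The summed leukocyte marker signal was 166 to 186 in shNC and 195 to 204 in shERCC6L, a difference led by CD68. Ranges also parted, with shERCC6L below shNC, for the fibroblast markers (128 to 135 against 109 to 113, with COL1A1 lower at -0.38), the liver markers (2332 to 2359 against 2236 to 2299), the distal nephron markers (94.9 to 95.9 against 85.5 to 93.6) and the renal line markers (30845 to 31258 against 28621 to 29318, with 4 lower and 2 higher, NNMT lower at -0.66). The part of these differences in the results was not tested.

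Many of these death genes differed between the groups, in equal numbers each way and by small amounts. On the brightest probe set of each gene, 11 of 35 were higher and 11 lower in shERCC6L, and 13 did not pass (limma, Benjamini-Hochberg adjusted p under 0.05 over 18132 genes). Over all genes 31.6% passed, 18.2% as higher and 13.4% as lower. The death genes were brighter than most: 29 of 35 lay at or above the median level, where 18 of 29 passed, against 52.4% of all genes at that level. The share of calls, 62.1%, was thus not far from that of genes of like brightness. In bulk RNA a change in all cells and a change in a part of them cannot be told apart. The groups did not overlap for 25 of 35, against 43.4% of all genes, and at or above the median level for 22 of 29, against 5849 of 9066 of all genes. The median log2 fold change was 0.023, beside -0.011 over all genes, and the median size was 0.162, beside 0.075 over all genes and, at or above the median level, 0.162 beside 0.137. Fold changes are on the scale of log2(signal + 16), which understates the change of dim genes, and are given as shERCC6L over shNC. At 1.5-fold or more 1 member passed, BCL2A1, beside 2.08% of all genes, and 0 members reached 2-fold.

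**Figure D1:**
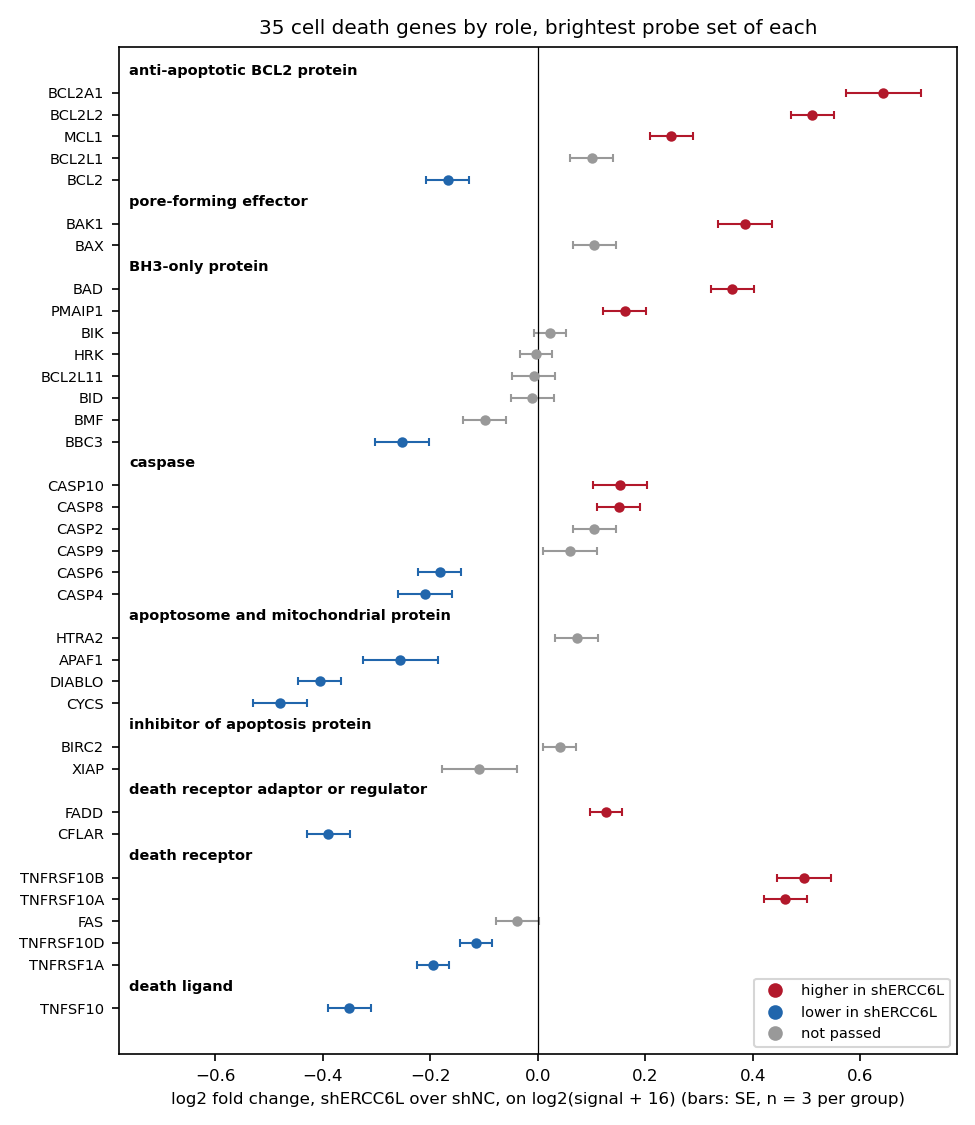
Log2 fold change of each of the 35 measured genes on its brightest probe set (x axis, shERCC6L over shNC, bars are the SE, n = 3 arrays per group), grouped by role; colours mark genes that passed as higher or lower. Genes run from CYCS at -0.48 to BCL2A1 at 0.64, and in most roles some genes lie on each side of 0.

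The TRAIL branch showed opposite changes of ligand and receptors: the ligand transcript was lower, and those of both receptors with a full death domain were higher. TNFSF10 encodes TRAIL. It read 3985, 4071 and 4040 in shNC and 3041, 3196 and 3237 in shERCC6L. Each shERCC6L array was below each shNC array, at a log2 fold change of -0.35 ± 0.04 (SE, 3 arrays a group; limma adjusted p = 9.3e-05). Its other probe sets fell too, by 0.49 and 0.45 on the log2 scale.

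TNFRSF10B, the TRAIL receptor also called DR5 and a known p53 target, read 710.2, 772.8 and 780.3 in shNC and 1038, 1058 and 1111 in shERCC6L. The groups were far apart, with a log2 fold change of 0.49 ± 0.05 (SE; limma adjusted p = 5e-05), and all 3 of its probe sets rose, by 0.45 to 0.50. TNFRSF10A, the receptor DR4, has 1 probe set, which read 84.59, 85.23 and 91.83 in shNC and 126.4, 124.7 and 126.7 in shERCC6L. All shERCC6L arrays were above all shNC arrays, with a rise of 0.46 ± 0.04 (SE; limma adjusted p = 2.6e-05). TNFRSF10D encodes a decoy receptor whose death domain is truncated. It was lower, at 176.5, 170.9 and 169 in shNC and 160, 156.8 and 156.4 in shERCC6L, a log2 fold change of -0.11 ± 0.03 (limma adjusted p = 0.028). That call ended with the probe sets averaged (-0.04, adjusted p = 0.49), when 1 was added before the logarithm (0.055), under an intensity trend with robust estimation (0.063), and without shNC replicate 1 (adjusted p = 0.1), shNC replicate 2 (0.055), shERCC6L replicate 2 (0.086) or shERCC6L replicate 3 (0.072). These receptor genes lie close together on chromosome 8 (GRCh38.p14), TNFRSF10B from 23020133 to 23069031, TNFRSF10D from 23135588 to 23164027 and TNFRSF10A from 23190452 to 23225102. On their brightest probe sets TNFRSF10B and TNFRSF10A were higher and TNFRSF10D lower. The fall of TNFRSF10D rests on a call that did not hold in every alternative, and its other probe set did not pass, at 0.04. TNFRSF10C, a further TRAIL receptor gene counted among the other death genes below, lay below the median level. It did not pass, at -0.09 ± 0.05 (SE; limma adjusted p = 0.21).

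**Figure D2:**
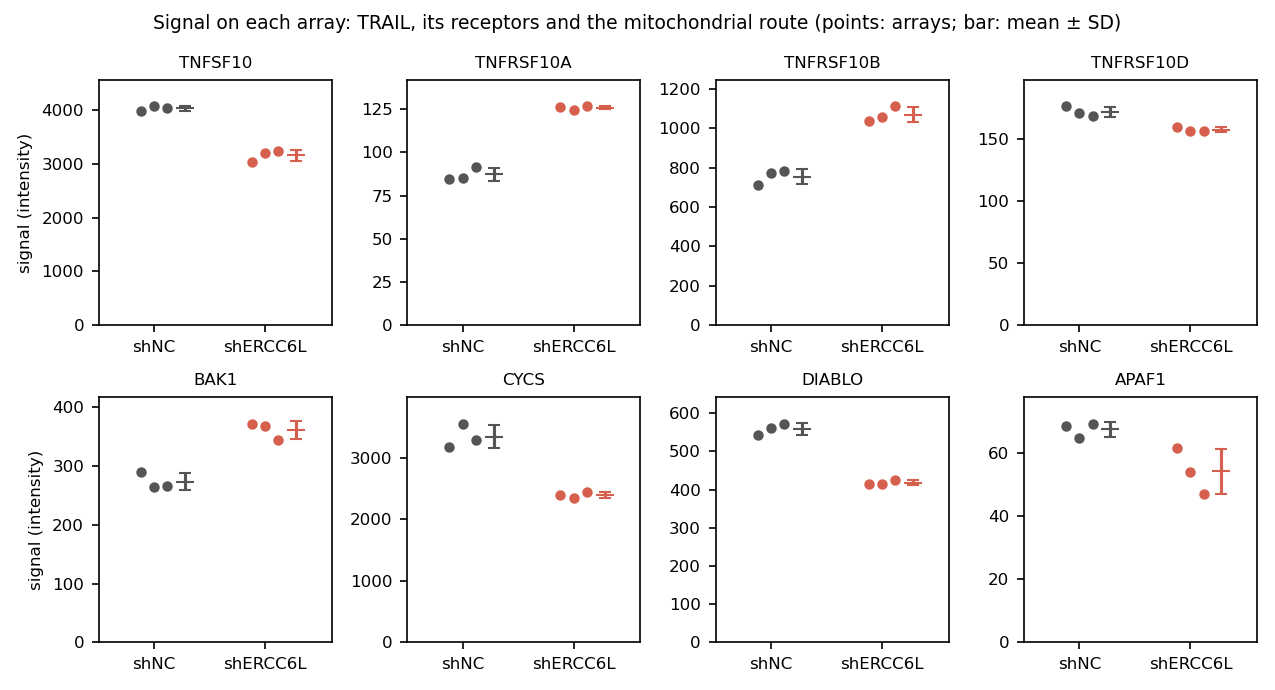
Signal (y axis, linear intensity from 0) on each of the 3 shNC and 3 shERCC6L arrays for TNFSF10, its receptors TNFRSF10A, TNFRSF10B and TNFRSF10D, and BAK1, CYCS, DIABLO and APAF1; points are arrays and the bar is the mean ± SD. In each panel all shERCC6L arrays lie on 1 side of all shNC arrays.

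Of the receptors outside the TRAIL branch, TNFRSF1A, the main receptor for TNF, was lower. It read 841.2, 827.5 and 857.2 in shNC and 727.7, 735.8 and 736.9 in shERCC6L, a log2 fold change of -0.19 ± 0.03 (SE; limma adjusted p = 0.0016). The groups did not overlap, and 3 of its 4 probe sets fell. FAS, the receptor for FAS ligand, read 223.5, 238.3 and 223.6 in shNC and 221.5, 213.2 and 231.5 in shERCC6L. These ranges overlap, and FAS did not pass at -0.04 ± 0.04 (limma adjusted p = 0.56).

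Among the genes for proteins that receptors recruit, CFLAR gave the least uniform picture of the 35 genes. CFLAR encodes c-FLIP, a caspase-like protein without protease activity that competes with CASP8 at the receptor and is made in a long and a short form. Its brightest probe set, 11753152_x_at, read 994, 1032 and 1040 in shNC and 742.9, 775.2 and 811.8 in shERCC6L, a log2 fold change of -0.39 ± 0.04 (SE; limma adjusted p = 0.00011). The next in brightness, 11720275_a_at, fell by 0.42 and 11756996_x_at by 0.23. 4 dimmer probe sets went the other way. The brightest of these, 11753252_a_at, read 121.1, 132.4 and 144.6 in shNC and 158, 165.2 and 155.2 in shERCC6L, a rise of 0.24. In all, 4 CFLAR probe sets rose, 3 fell and 2 did not pass (adjusted over 44988 probe sets). With the 9 averaged, the gene did not pass, at a log2 fold change of -0.02 (limma adjusted p = 0.62).

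The disagreement was tested directly, as the difference on each array between a further probe set and the brightest of the same gene. For CFLAR 6 of the 8 further probe sets differed from the brightest, by 0.30 to 0.63 on the log2 scale (limma adjusted p from 0.00042 to 0.0094 over 26856 such differences). The widest was 11753252_a_at, at 0.63 ± 0.06 (SE). Which transcripts of CFLAR each probe set reads was not analysed here.

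**Figure D3:**
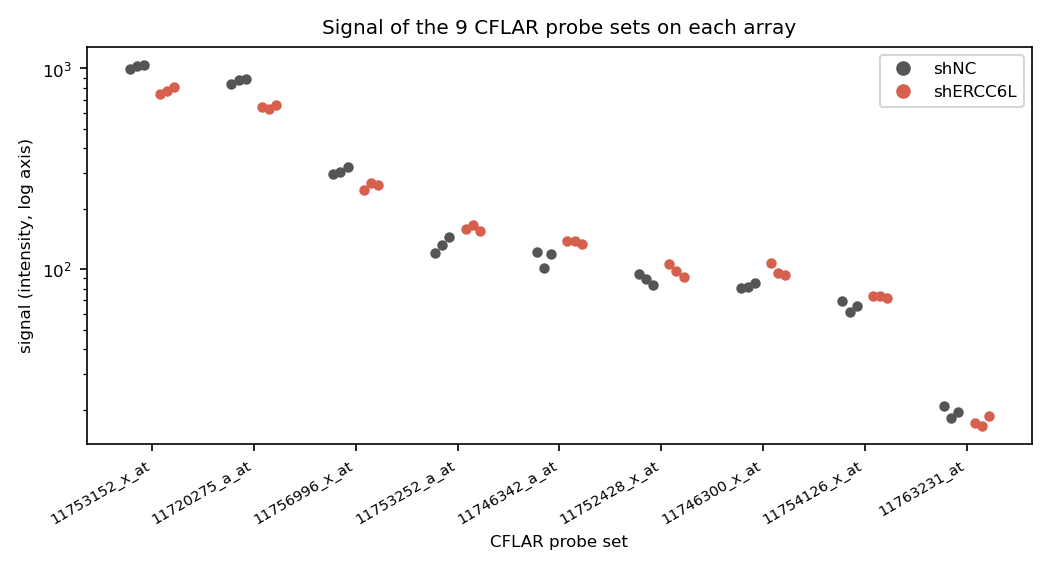
Signal (y axis, linear intensity on a log axis) of the 9 CFLAR probe sets on each shNC and shERCC6L array, ordered from bright to dim along the x axis; points are arrays. The 3 brightest are lower on all shERCC6L arrays, while the fourth and the fifth are higher on all of them.

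FADD, the adaptor that links receptors to caspases, read 623.8, 604.4 and 618.8 in shNC and 673.1, 690.9 and 657.6 in shERCC6L. The groups were apart and the rise was small, 0.13 ± 0.03 (SE; limma adjusted p = 0.021). Its dimmest probe set, at 19.64 to 24.65 over all arrays, fell by 0.12 and the remaining one did not pass. The call ended with the probe sets averaged (0.02, adjusted p = 0.57), with quantile normalization (0.10, adjusted p = 0.085), with a pseudocount of 1 (0.13, adjusted p = 0.052) and on leaving out shNC replicate 2 (0.067), shNC replicate 3 (0.054) or shERCC6L replicate 2 (0.085).

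The caspase transcripts shifted little. CASP8, the initiator recruited by FADD, read 254.2, 260.8 and 266.7 in shNC and 279.1, 299.2 and 295 in shERCC6L. The arrays of both groups were apart, at 0.15 ± 0.04 (SE; limma adjusted p = 0.015), and 4 of its 8 probe sets rose while 0 fell. Without shNC replicate 1 (adjusted p = 0.058) or shERCC6L replicate 2 (0.064) CASP8 did not pass. CASP10, a close relative of CASP8, was dim, at 58.28, 60.35 and 66.2 in shNC and 73.86, 66.17 and 70.74 in shERCC6L. Its groups overlapped by a narrow margin. It passed at 0.15 ± 0.05 (limma adjusted p = 0.042), while a dimmer probe set fell by 0.12. The CASP10 call ended in 9 of 16 alternatives, among them probe sets averaged (0.07, adjusted p = 0.11), a pseudocount of 64 (0.10, adjusted p = 0.061), and on leaving out shNC replicate 1 (adjusted p = 0.14), shNC replicate 2 (0.11), shERCC6L replicate 1 (0.13) or shERCC6L replicate 3 (0.094).

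CFLAR, CASP10 and CASP8 are neighbours on chromosome 2 (GRCh38.p14), from 201116164 to 201176687, from 201183141 to 201229406 and from 201233463 to 201287711. On their brightest probe sets CFLAR was lower and both caspases were higher.

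CASP9, the initiator activated by the apoptosome, did not pass on its brightest probe set, at 292.6, 264.4 and 289 in shNC and 294.7, 282.8 and 306.1 in shERCC6L (0.06 ± 0.05, limma adjusted p = 0.40). That value was 0.02 without shNC replicate 2 and 0.03 without shERCC6L replicate 3. Its other probe set read 168.6, 166.4 and 183.5 in shNC and 219.6, 212.4 and 213 in shERCC6L, with the groups apart. It rose by 0.29 and differed from the brightest by 0.23 ± 0.06 (SE; limma adjusted p = 0.031). With both averaged CASP9 passed at 0.18 (adjusted p = 0.0049).

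CASP6, an executioner caspase, and CASP4, an inflammatory caspase that senses bacterial lipopolysaccharide, were both lower. CASP6 read 356.3, 366.7 and 353.6 in shNC and 321.8, 301.9 and 319.6 in shERCC6L, without overlap, at -0.18 ± 0.04 (SE; limma adjusted p = 0.005). CASP4 read 494.9, 510.8 and 509.6 in shNC and 399, 453.8 and 452.5 in shERCC6L, at -0.21 ± 0.05 (limma adjusted p = 0.012). For CASP4 5 of 7 probe sets fell and 0 rose, and shERCC6L replicate 1 was the lowest array. CASP2, an initiator linked to mitotic and DNA damage stress, lay just short of the threshold at 0.10 ± 0.04 (adjusted p = 0.051). It read 406.9, 406.7 and 402.4 in shNC and 426.8, 431.8 and 453 in shERCC6L. The groups did not overlap, and CASP2 passed in 6 of 17 alternatives at 0.09 to 0.12.

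At the mitochondrion, the pore-former BAK1 was higher, while 3 of the 4 genes for proteins of the apoptosome or released from mitochondria were lower. BAK1 read 289.7, 263.8 and 266 in shNC and 372.4, 367.8 and 344.5 in shERCC6L, a rise of 0.39 ± 0.05 (SE, n = 3 per group; limma adjusted p = 0.00024). Of its 4 further probe sets 3 rose more. The steepest, 11732515_x_at, went from 99.7, 97.71 and 97.09 to 169, 167.5 and 171.6, a rise of 0.70. That exceeded the brightest by 0.31 ± 0.06 (limma adjusted p = 0.0074). The fifth BAK1 probe set was dim, at 17.97 to 22.37, and did not pass.

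BAX, the other pore-former, read 403.6, 372.1 and 380.7 in shNC and 412.8, 421.2 and 412.5 in shERCC6L. All shERCC6L arrays were above all shNC arrays, yet BAX did not pass at 0.10 ± 0.04 (SE; limma adjusted p = 0.07). Its other probe set rose by 0.23 ± 0.03, and with both averaged BAX passed at 0.17 (adjusted p = 0.0016). BAX also passed in 5 other alternatives, at 0.09 to 0.14.

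CYCS, the gene for cytochrome c, read 3183, 3559 and 3296 in shNC and 2391, 2344 and 2447 in shERCC6L. No array of either group came near the other, and the log2 fold change was -0.48 ± 0.05 (SE; limma adjusted p = 5.9e-05). A bright further probe set, 11753803_x_at, fell by 0.27, less than the brightest by 0.21 ± 0.05 (limma adjusted p = 0.04), and a dim one did not pass. With the 3 averaged the change was -0.24. DIABLO, also called SMAC, has 1 probe set. It read 542.4, 562.3 and 572.9 in shNC and 414.3, 414.4 and 425.9 in shERCC6L, a fall of 0.41 ± 0.04 (SE; limma adjusted p = 3.5e-05).

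APAF1, the scaffold of the apoptosome, read 68.5, 64.84 and 69.35 in shNC and 61.46, 54.07 and 47.07 in shERCC6L. All shERCC6L arrays were lower, with more spread than in shNC, at -0.26 ± 0.07 (SE; limma adjusted p = 0.017). APAF1 lay below the median level. Its call was lost without shNC replicate 1 (adjusted p = 0.051), shNC replicate 3 (0.058) or shERCC6L replicate 2 (0.05, rounded), and the change was -0.12 with probe sets averaged and -0.16 with a pseudocount of 64. HTRA2, a mitochondrial protease, did not pass at 0.07 ± 0.04 (adjusted p = 0.18), though 1 of its 4 probe sets rose by 0.15 and the average of the 4 passed at 0.10 (adjusted p = 0.017).

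The TRAIL receptor genes were left out of the choice of promoters, though TNFRSF10B (0.49) and TNFRSF10A (0.46) rose more than BAK1 (0.39). The other called members were considered if at or above the median level, with 1 start listed in the RefSeq table used. BCL2L2 also rose more than BAK1, by 0.51, but did not meet the rule on starts. Of the members considered, BAK1 had the largest rise and CYCS the largest fall, and their promoters are shown. Each is 300 bases of GRCh38.p14, from 250 before to 50 after the start. Both lie on the minus strand, BAK1 at chr6:33580227-33580526 and CYCS at chr7:25125211-25125510. Capitals mark matches on either strand to the GC box GGGCGG, the CCAAT box CCAAT, the cyclic AMP response half-site TGACG or the E-box CACGTG, which share no position in these windows.
BAK1: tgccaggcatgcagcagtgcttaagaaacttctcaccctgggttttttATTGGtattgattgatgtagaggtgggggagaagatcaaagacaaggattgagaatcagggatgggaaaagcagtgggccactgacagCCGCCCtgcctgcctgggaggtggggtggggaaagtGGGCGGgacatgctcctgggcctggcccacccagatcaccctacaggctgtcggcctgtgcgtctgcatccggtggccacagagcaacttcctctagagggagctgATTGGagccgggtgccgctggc
CYCS: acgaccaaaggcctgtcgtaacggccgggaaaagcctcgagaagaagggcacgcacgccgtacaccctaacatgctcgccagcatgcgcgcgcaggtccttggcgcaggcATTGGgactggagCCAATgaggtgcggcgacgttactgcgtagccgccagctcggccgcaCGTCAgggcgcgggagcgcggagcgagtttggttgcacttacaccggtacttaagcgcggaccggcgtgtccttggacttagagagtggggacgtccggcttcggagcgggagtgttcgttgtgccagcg
BAK1 held 2 GC boxes and 2 CCAAT boxes, and CYCS held 2 CCAAT boxes and 1 cyclic AMP response half-site. Neither window held the E-box. Of 35116 promoters of that length, 45% held the GC box, 34.6% the CCAAT box, 24.6% the half-site and 7.26% the E-box, so the matched elements are common ones. GC content was 58.7% for BAK1 and 64.7% for CYCS.

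Of the 5 genes for survival proteins of the BCL2 family, which hold BAX and BAK1 in check, 3 had higher and 1 lower transcript signal. BCL2L2, which encodes BCL-w, read 392.3, 362.4 and 383 in shNC and 532.4, 553.4 and 555.3 in shERCC6L. The groups were far apart, at 0.51 ± 0.04 (SE; limma adjusted p = 1.9e-05), and all 3 of its probe sets rose. The smallest of these rises, 0.16, was on a probe set at 22.71 ± 1.3 (SD) in shNC and fell short of the brightest by 0.35 ± 0.06 (limma adjusted p = 0.0065).

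MCL1, which encodes a short-lived survival protein, read 1274, 1269 and 1348 in shNC and 1550, 1549 and 1529 in shERCC6L. The groups were well apart at 0.25 ± 0.04 (SE; limma adjusted p = 0.00073). Of its 6 probe sets 4 rose and 2 did not pass. 11715484_a_at rose by 0.47, more than the brightest by 0.22 ± 0.05 (limma adjusted p = 0.029). 11715485_a_at, at 426.4, 432.1 and 426.5 in shNC and 423.1, 415.5 and 391.7 in shERCC6L, differed the other way, by -0.31 ± 0.05 (limma adjusted p = 0.0052). The MCL1 probe sets thus did not change alike.

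BCL2A1, a survival gene known as an NF-kB target, had the largest fold change of the 35 genes on their brightest probe sets. It read 48.21, 54.49 and 55.35 in shNC and 85.05, 86.62 and 102.6 in shERCC6L, a 1.56-fold rise (0.64 ± 0.07, SE; limma adjusted p = 9.1e-05). The groups did not overlap, but the mean level was below the median over genes. Its other probe set read 7.24 to 9.51 on all arrays and did not pass, differing from the brightest by -0.64 ± 0.08 (limma adjusted p = 0.0017). With both averaged the change was 0.32, and with a pseudocount of 64 it was 0.41.

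BCL2L1, which encodes BCL-XL, read 451, 478.2 and 462.7 in shNC and 488.6, 490.5 and 516.1 in shERCC6L. The arrays did not overlap, yet the brightest probe set did not pass at 0.10 ± 0.04 (SE; limma adjusted p = 0.081). A dimmer one rose by 0.26, and the average of its 3 probe sets passed at 0.12 (adjusted p = 0.0058). BCL2 itself was dim, at 69.34, 73.04 and 70.4 in shNC and 63.69, 57.5 and 63.12 in shERCC6L. It was lower by a small amount, -0.17 ± 0.04 (SE; limma adjusted p = 0.013), on 1 of its 6 probe sets, and the change was -0.09 with the 6 averaged and -0.10 with a pseudocount of 64.

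**Figure D4:**
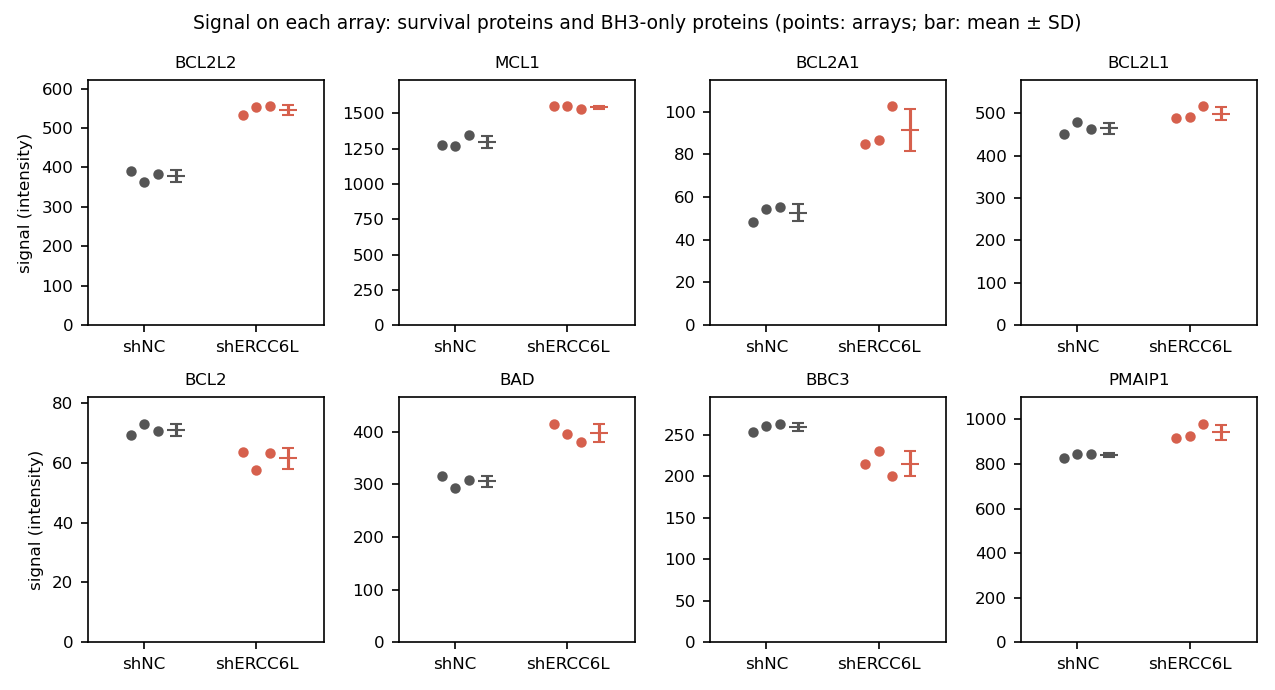
Signal (y axis, linear intensity from 0) on each of the 3 shNC and 3 shERCC6L arrays for the survival genes BCL2L2, MCL1, BCL2A1, BCL2L1 and BCL2 and the BH3-only genes BAD, BBC3 and PMAIP1; points are arrays and the bar is the mean ± SD. BCL2L2 moved from 379.2 to 547 and BAD from 305.7 to 397.4, while BBC3 moved from 259.2 to 215.2.

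Of the 8 BH3-only genes, whose products neutralise survival proteins or activate BAX and BAK1, 2 were higher, 1 lower and 5 did not pass. BAD, which binds BCL2, BCL-XL and BCL-w, read 315, 293.7 and 308.2 in shNC and 415.5, 396.5 and 380.2 in shERCC6L. Its arrays were apart, and both probe sets rose, the brightest by 0.36 ± 0.04 (SE; limma adjusted p = 0.00022) and the other by 0.34. PMAIP1, or NOXA, which binds MCL1 and BCL2A1, read 828.3, 845.7 and 844.6 in shNC and 917.2, 925.4 and 981.4 in shERCC6L. Both of its probe sets rose, the brightest by 0.16 ± 0.04 (limma adjusted p = 0.0092).

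BBC3, or PUMA, like PMAIP1 a known p53 target, was lower. It read 253.3, 260.7 and 263.5 in shNC and 214.8, 230 and 200.6 in shERCC6L, without overlap, at -0.25 ± 0.05 (SE; limma adjusted p = 0.0033). Its other probe set did not pass at 0.01, and with both averaged the change was -0.12 (adjusted p = 0.012). BCL2L11, or BIM, had 14 probe sets, of which 0 passed. The brightest read 153.7, 136.9 and 143.6 in shNC and 146.4, 144 and 140.8 in shERCC6L, with overlapping groups and a log2 fold change of -0.01 ± 0.04.

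BID, the substrate of CASP8 (-0.01 ± 0.04), BIK (0.02 ± 0.03) and BMF (-0.10 ± 0.04) did not pass. BMF lay lower on all shERCC6L arrays, and 2 of its 4 probe sets fell, by 0.39 and 0.12. With its probe sets averaged BMF passed at -0.17 (adjusted p = 0.0045). HRK, on 1 dim probe set at 27.47 to 29.08, differed by less than 0.01 and did not pass.

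Among the listed members, 2 measured genes encode inhibitors of apoptosis, XIAP, whose product blocks active caspases, and BIRC2, a ubiquitin ligase of TNF receptor signalling. Neither passed on any probe set. Further genes of this family are among the other death genes below: BIRC5 was higher (0.66), NAIP lower (-0.21), and BIRC6 (0.10) and BIRC7 (-0.10) did not pass. XIAP read 463.1, 558.8 and 498.1 in shNC and 437.9, 456.7 and 510.3 in shERCC6L, at -0.11 ± 0.07 (SE; limma adjusted p = 0.32). The XIAP value was -0.17 without shNC replicate 1 or shERCC6L replicate 3, -0.06 without shERCC6L replicate 1, -0.04 without shNC replicate 2 and -0.003 with its probe sets averaged, and did not pass in any of these. BIRC2 read 1313, 1319 and 1358 in shNC and 1336, 1382 and 1386 in shERCC6L, at 0.04 ± 0.03 (adjusted p = 0.44). For both genes the groups overlapped.

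Over all 134 probe sets of these genes, 34 rose, 26 fell and 74 did not pass when every probe set was tested, a share of 44.8% called against 29% over all probe sets, of which 17% rose and 12% fell. The member probe sets were also brighter: 78 of the 134 lay at or above the median level over genes, against 19451 of all 44988. The part of brightness in the share called was not tested. For 3 genes, CFLAR, CASP10 and FADD, probe sets passed in both directions. Of the 99 further probe sets, 20, from 10 genes, differed from the brightest of their gene, against 10.4% of all such differences. Of these 20, 9 lay below the median level over genes, and the part of low signal in their difference was not tested. The 10 genes were CFLAR, MCL1, BAK1, BCL2A1, BCL2L2, CASP4, CASP9, CASP10, CYCS and FADD. The count was 13 with a pseudocount of 1. It was also 13 when shNC replicate 2 or shERCC6L replicate 1 was left out.

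**Figure D5:**
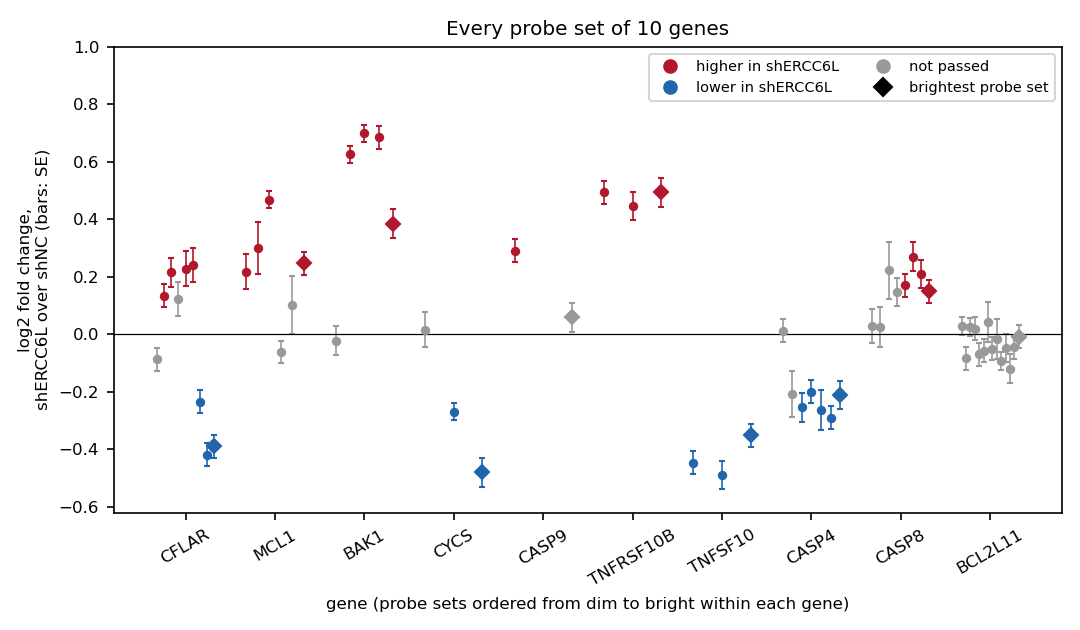
Log2 fold change (y axis, shERCC6L over shNC, bars are the SE) of every probe set of 10 genes, ordered from dim to bright within each gene, with a diamond for the brightest; colours mark probe sets that passed as higher or lower when all were tested. CFLAR lies on both sides of 0, TNFRSF10B and TNFSF10 lie on 1 side each, and 0 of 14 BCL2L11 probe sets passed.

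Of 43 other genes of cell death, 40 were measured, 28 of them at or above the median level. They were listed for their role, with earlier results of these data known. Among the 40, 14 were higher, 6 lower and 20 did not pass, with a median log2 fold change of 0.022. These calls make 50% over all 40 genes, beside 31.6% of all genes. All called genes but TNFRSF25 and NAIP lay at or above the median level, where 52.4% of all genes passed. The 50% is thus not a share at that level. BIRC5, which encodes survivin, rose from 1549 ± 42.4 to 2454 ± 9.67 (SD, n = 3 per group), BCL2L12 from 789 ± 24.7 to 1056 ± 24.5 and CYLD, a deubiquitinase of TNF signalling, from 132.1 ± 11.2 to 168.8 ± 12.6. The widest falls were in MLKL, the executioner of necroptosis, from 103.3 ± 5.47 to 73.46 ± 4.73, the death receptor gene TNFRSF21 from 374.7 ± 7.2 to 288.8 ± 20.7 and DAPK1, death-associated protein kinase, from 1046 ± 36.8 to 823.3 ± 22.4. Their limma adjusted p-values were between 1.8e-06 and 0.0043. All 3 voltage-dependent anion channel genes lay above 0, of which VDAC2 and VDAC3 passed at 0.19 each and VDAC1 did not at 0.10.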

How the data were processed

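Total RNA was hybridised to 1 single-channel Affymetrix array per sample. The authors deposited linear intensities, 1 per probe set and array, made with Affymetrix Expression Console, per the submitters' processing notes. How they corrected background, normalized and summarized is not given in the sources used here. Gene symbols came from GEO's platform annotation, which gave 44988 of 49395 probe sets 1 symbol, 1832 several and 2473 none, beside 102 controls. All 35 measured members matched RefSeq by gene number.

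Intensities were transformed to log2(signal + 16). Each of 18132 genes was represented by its brightest probe set, by mean over the 6 arrays. The 2-sided comparison of 3 with 3 arrays used lmFit and eBayes of limma 3.58.1 (R 4.3.3) without a block, with 4 residual degrees of freedom and a prior of 4.95, adjusted by Benjamini-Hochberg over all genes at 0.05. The same test was run on all 44988 probe sets and on the 26856 within-gene differences. It was also tested on simulated data drawn with independent noise, which does not hold the signal shared by probe sets of a gene. The number of arrays limits the precision.

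Members and lists were chosen with earlier results of these data known. Every member is named. Values on all arrays are given for called members changed by at least 0.25 on the log2 scale, for genes whose probe sets disagreed, for BAX and for members named after their values were seen. Of the other death genes the 3 largest rises and 3 largest falls past the threshold are named, with the VDAC genes added after their values were seen. Promoters are RefSeq's (GRCh38.p14), and those shown and the motifs were chosen after the values were seen. Same-numbered arrays did not deviate together (correlations 0.24, -0.14 and -0.01), so no pairs were assumed.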

Additional observations from a re-analysis of the deposited data

How the results depend on the processing

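Alternatives were quantile normalization, median centring, a replicate block, 2 filters on dim genes, probe sets averaged or all tested, array weights, robust estimation with a trend, pseudocounts of 1 and 64, and each array left out. Of the 22 called members, 16 stayed past the threshold in the same direction in every alternative that measured them, and 0 changed direction. The exceptions were CASP8, CASP10, APAF1, CFLAR, FADD and TNFRSF10D, whose values stand with the results. With the replicate block 11 members were higher and 11 lower, as without it, and 18 in place of 20 within-gene differences passed, so the block did not move a count by over 1.5 times. Leaving out arrays gave 9 to 11 higher and 9 to 11 lower members, and 13 to 16 within-gene differences. With a pseudocount of 1 the number of within-gene differences was 13. Members that did not pass changed sign near 0: BID at 0.019 with probe sets averaged (-0.034 to 0.011 without single arrays), HRK at 0.019 with quantile normalization, 0.005 with median centring and 0.004 with array weights (-0.018 to 0.009), BCL2L11 at 0.001 with median centring (-0.043 to 0.032) and FAS at 0.022 with probe sets averaged (-0.067 to -0.01). The cause of these shifts was not tested. Detection calls were not used here, so no background level is set for dim probe sets.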
